A study of Drosophila melanogaster with 12 samples.

Results

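The transcripts described here are those of the mitochondrial genome of Drosophila melanogaster, measured in larval fat body with or without a construct against the insulin receptor, on food with low or high sugar. They were taken as the genes of the count table whose symbol begins with mt:, which gave 37 of 15222 genes: 13 protein genes, 2 ribosomal RNA genes and 22 tRNA genes. RNA sequencing was done on fat bodies of female larvae at the wandering stage, reared at 25 °C. Mothers carried UAS-Dcr2, which raises the yield of RNA interference, and r4-GAL4, a driver active in the fat body. In the InRi groups the fathers came from stock 992 and carried UAS-InRi, a construct against the insulin receptor gene InR. In the control groups they came from stock 60000 (w1118). The 4 groups of 3 libraries each were InRi on 0.15 M sucrose, control on 0.15 M sucrose, InRi on 0.7 M sucrose and control on 0.7 M sucrose, and all 4 carried the driver and UAS-Dcr2. Fat bodies were freed by shearing and collected by centrifugation, so the preparation was enriched and not dissected, and the number of larvae per library was not given. Nothing in the labels says that the replicates came from separate cultures, so p-values measure the spread between these libraries.

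The mitochondrial genome encodes core subunits of the respiratory chain and of ATP synthase, and all other subunits are made from nuclear genes. It is read from both strands as long precursors, which are cut apart largely at the tRNAs that lie between the other genes, so neighbouring genes start from shared transcripts and reach their separate levels through processing and decay. In the fat body, which stores fat and glycogen and secretes the proteins of the haemolymph, mitochondria burn fuel and supply precursors for lipid synthesis.

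Libraries held 872755 to 7114144 counts. Control 0.15 M replicate 2 stood apart from the other 11 libraries, with 7628 genes detected against 9214 to 11312. InR itself had 151, 133 and 116 CPM in InRi on 0.15 M sucrose and 61.1, 26.0 and 43.1 CPM in control (CPM is counts per 1000000 counts after TMM scaling, which evens out differences in library make-up). On 0.7 M sucrose it had 109, 163 and 148 CPM in InRi and 56.4, 45.4 and 55.5 CPM in control. The InR row was thus higher where the label says InRi, with no overlap on either diet (log2 fold change 1.60, SE 0.30, edgeR quasi-likelihood adjusted p = 0.0185 for the low-sugar food; 1.42, SE 0.30, edgeR adjusted p = 0.0157 for the high-sugar food). The table has 1 row for InR and does not separate reads of the RNAi construct from reads of the gene's own transcript, so these values do not show whether that transcript was lowered, and the part of construct reads was not tested. InRi therefore stands below for the libraries labelled so, and each direction given for InRi rests on that label. Fat body markers summed to 161053 to 356484 CPM over the 12 libraries, and all 8 of them were detected. Single fat body markers differed between InRi and control, as given below for 0.7 M sucrose.

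The mitochondrial genome gave 1501455 of 51470185 counts over the 12 libraries, and its share varied widely among them. In InRi on 0.15 M sucrose it made up 1.99%, 3.33% and 2.15% of counts in replicates 1, 2 and 3. In control on 0.15 M sucrose it made up 2.44%, 0.0451% and 6.67%. The control group on the low-sugar diet thus held both the lowest and the highest share of all 12 libraries, and the InRi replicates lay between them.

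On 0.7 M sucrose the share was 2.54%, 0.776% and 1.64% in InRi and 4.30%, 5.39% and 3.39% in control. Every InRi library there lay below every control library. The smallest library, control 0.7 M replicate 3, had a 95% Wilson interval of 3.35% to 3.43%, narrow beside the spread between replicates. Such intervals treat reads as independent and cover counting error only.

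**Figure D1:**
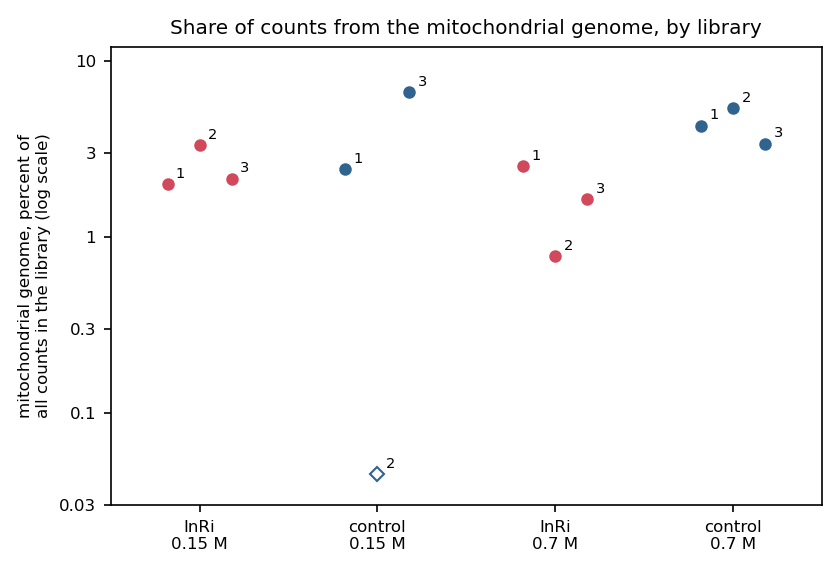
Percent of all counts that came from the 37 mitochondrial genes (y axis, log scale) in each library, with InRi in red, control in blue and the replicate number beside each point. Control 0.15 M replicate 2, the open diamond, sits at 0.0451% while the other 11 libraries lie between 0.776% and 6.67%, and on 0.7 M sucrose the InRi libraries all lie below the control libraries.

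The genotype difference on 0.7 M sucrose was the only pairwise one in which the groups did not overlap in share. The mean share was 1.65% ± 0.88 in InRi and 4.36% ± 1.0 in control (SD, n = 3 each), a ratio of geometric means of 0.345 (log2 ratio -1.53; exact two-sided permutation test p = 0.1, the smallest that 3 against 3 libraries can give). In these bulk samples, fewer mitochondria-rich cells and fewer mitochondrial transcripts per cell cannot be told apart.

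On 0.15 M sucrose the direction depended on how the shares were averaged. The arithmetic mean was 2.49% ± 0.73 in InRi and 3.05% ± 3.35 in control, whereas the log2 ratio was 1.43 in favour of InRi (exact permutation p = 0.9, n = 3 each). Without control 0.15 M replicate 2 the log2 ratio was -0.74 (exact permutation p = 0.3, 3 against 2 libraries).

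No association of sucrose with the share was shown in either genotype. With 3 against 3 libraries the exact permutation p cannot fall below 0.1, so the test could not settle this. In control the log2 ratio of 0.7 M to 0.15 M was 2.25 (exact permutation p = 0.5), 0.09 without control 0.15 M replicate 2 (exact permutation p = 0.9) and 3.69 without control 0.15 M replicate 3 (exact permutation p = 0.1, the smallest possible). In InRi it was -0.71 (exact permutation p = 0.3, n = 3 each). This value rested on single libraries: it was -1.10 without InRi 0.7 M replicate 1 (exact permutation p = 0.1, the smallest possible), where the groups no longer overlapped, and -0.25 without InRi 0.7 M replicate 2 (exact permutation p = 0.6).

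Taken within sucrose levels, which sets InRi against control over all 12 libraries, the genotype log2 ratio was -0.05 (exact stratified permutation p = 0.985). Without control 0.15 M replicate 2 it was -1.13, or 0.455 of the control share (exact stratified permutation p = 0.02, where the smallest possible is 0.005). All 3 InRi libraries on 0.7 M sucrose were then below all control libraries of that diet, while on 0.15 M sucrose 2 of the 3 InRi libraries were below both remaining control libraries. The sucrose log2 ratio within genotypes was 0.77 (exact permutation p = 0.785) and -0.31 without that library (exact permutation p = 0.455).

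The counts were concentrated in few genes. The large ribosomal RNA, mt:lrRNA, took 836199 of the mitochondrial counts. It accounted for 52.7% to 60.9% of them in 11 libraries and for 67.3% in control 0.15 M replicate 2, although the protocol removed ribosomal RNA with RiboZero. Whether the depletion probes covered the mitochondrial ribosomal RNAs is not given in the sources used here. All 101 cytosolic ribosomal RNA genes of the table stood at 0 counts. The parts of the depletion and of the authors' counting in that were not tested. The small ribosomal RNA, mt:srRNA, had 3786 counts in all, and the ratio of mt:lrRNA to mt:srRNA counts ran from 113.5 in InRi 0.15 M replicate 2 to 506 in control 0.15 M replicate 1. A mitoribosome holds one molecule of each, so these counts did not follow that stoichiometry.

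Per length, the genes spread over a wide range of levels. With mt:CoI, the catalytic subunit of cytochrome c oxidase (complex IV), set to 100% of its CPM per kilobase, mt:lrRNA stood at a median of 365% over the libraries. The other mitochondrially encoded complex IV subunits, mt:CoIII and mt:CoII, stood at 137% and 52.9%. Cytochrome b of complex III, mt:Cyt-b, stood at 40.7%, and mt:ATPase6, which forms part of the proton channel of ATP synthase, at 24.9%. The complex I subunits, all of them in its membrane arm, came lower, with mt:ND1 at 12.5%, mt:ND4 at 7.55%, mt:ND3 at 4.19% and mt:ND5 at 3.47%. mt:srRNA stood at 2.85%, below all of these protein genes.

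The remaining protein genes were at or near 0. mt:ND2 had 17 counts and mt:ND6 11 counts in all libraries together, and mt:ATPase8 and mt:ND4L had 0. On the genome, mt:ATPase8 lies next to mt:ATPase6, mt:ND4L next to mt:ND4 and mt:ND6 next to mt:Cyt-b, in each case on the same strand, and these neighbours were well counted. The tRNA genes had 22 counts in all, in 6 of the 22 genes and at most 8 in a gene. The library preparation included a size exclusion step. How the authors' counting treated overlapping genes, short genes, reads matching more than 1 place and strand is not given, and its part in these low counts was not tested.

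Of the 37 genes, 11 had enough counts to be tested: mt:CoI, mt:CoII, mt:CoIII, mt:Cyt-b, mt:ATPase6, mt:ND1, mt:ND3, mt:ND4, mt:ND5, mt:lrRNA and mt:srRNA. The other 26 were not tested, and 18 of them were at 0 in every library.

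On 0.7 M sucrose, every tested mitochondrial gene had a negative fold change in the libraries with the InRi label, though none passed when all 12 libraries shared 1 estimate of the spread. The median log2 fold change of the 11 genes was -1.39, against -0.04 over all 8662 genes tested. edgeR called 0 of 11 at an adjusted p under 0.05 (5.41% of all genes were called), with 1 gene at an unadjusted p under 0.05, and DESeq2 also called 0, with 2 genes at an unadjusted p under 0.05. At that unadjusted threshold were 1622 of all 8662 genes with edgeR and 1754 with DESeq2, and DESeq2 called 836. In 10 of the 11 mitochondrial genes, all but mt:ATPase6, every InRi library lay below every control library, where 16.5% of all genes did so in that direction. The 11 genes lie on 1 genome and start from shared transcripts, so such counts are not those of separate observations.

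mt:CoI, at the catalytic core of complex IV, had 4531, 1711 and 2543 CPM in InRi on 0.7 M sucrose, against 6244, 10909 and 4609 CPM in control. The highest InRi library lay just under the lowest control library (log2 fold change -1.31, SE 1.03, edgeR adjusted p = 0.566). mt:CoII, the subunit that receives electrons from cytochrome c, had 1007, 449 and 644 CPM in InRi and 1667, 2548 and 1163 CPM in control. mt:CoIII, the third large core subunit, had 3191, 1251 and 1941 CPM in InRi and 4216, 5905 and 3313 CPM in control. In all of these genes InRi replicate 2 was the lowest and control replicate 2 the highest, as in the share.

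mt:Cyt-b, which carries both haems of the b type in complex III, had 1444, 405 and 649 CPM in InRi on 0.7 M sucrose and 2652, 4259.8 and 1804.5 CPM in control. The groups were further apart than for complex IV (log2 fold change -1.80, SE 0.99, edgeR adjusted p = 0.370).

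The complex I gene mt:ND3 differed most, with 39.8, 13.3 and 14.9 CPM in InRi on 0.7 M sucrose and 123.8, 234.6 and 92.6 CPM in control. Its groups lay far apart, and it had the only unadjusted p under 0.05 among the 11 genes (log2 fold change -2.72, SE 0.98, edgeR adjusted p = 0.144). mt:ND4 had 336.7, 97.9 and 152.8 CPM in InRi and 651, 1082 and 436.7 CPM in control. The other complex I genes, mt:ND1 and mt:ND5, had log2 fold changes of -1.82 and -1.83, also with no overlap between the groups.

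mt:ATPase6 was the exception on 0.7 M sucrose. It had 674.6, 404 and 429 CPM in InRi and 618, 1046 and 491 CPM in control, so its groups overlapped (log2 fold change -0.52, SE 1.01, edgeR adjusted p = 0.863). The ribosomal RNAs lay between, mt:lrRNA with 14357, 5078 and 9356 CPM in InRi and 22439, 33513 and 19619.8 CPM in control, and mt:srRNA with 75.2, 28.0 and 57.1 CPM in InRi and 135.3, 107.7 and 99.1 CPM in control. Neither overlapped between the groups.

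**Figure D2:**
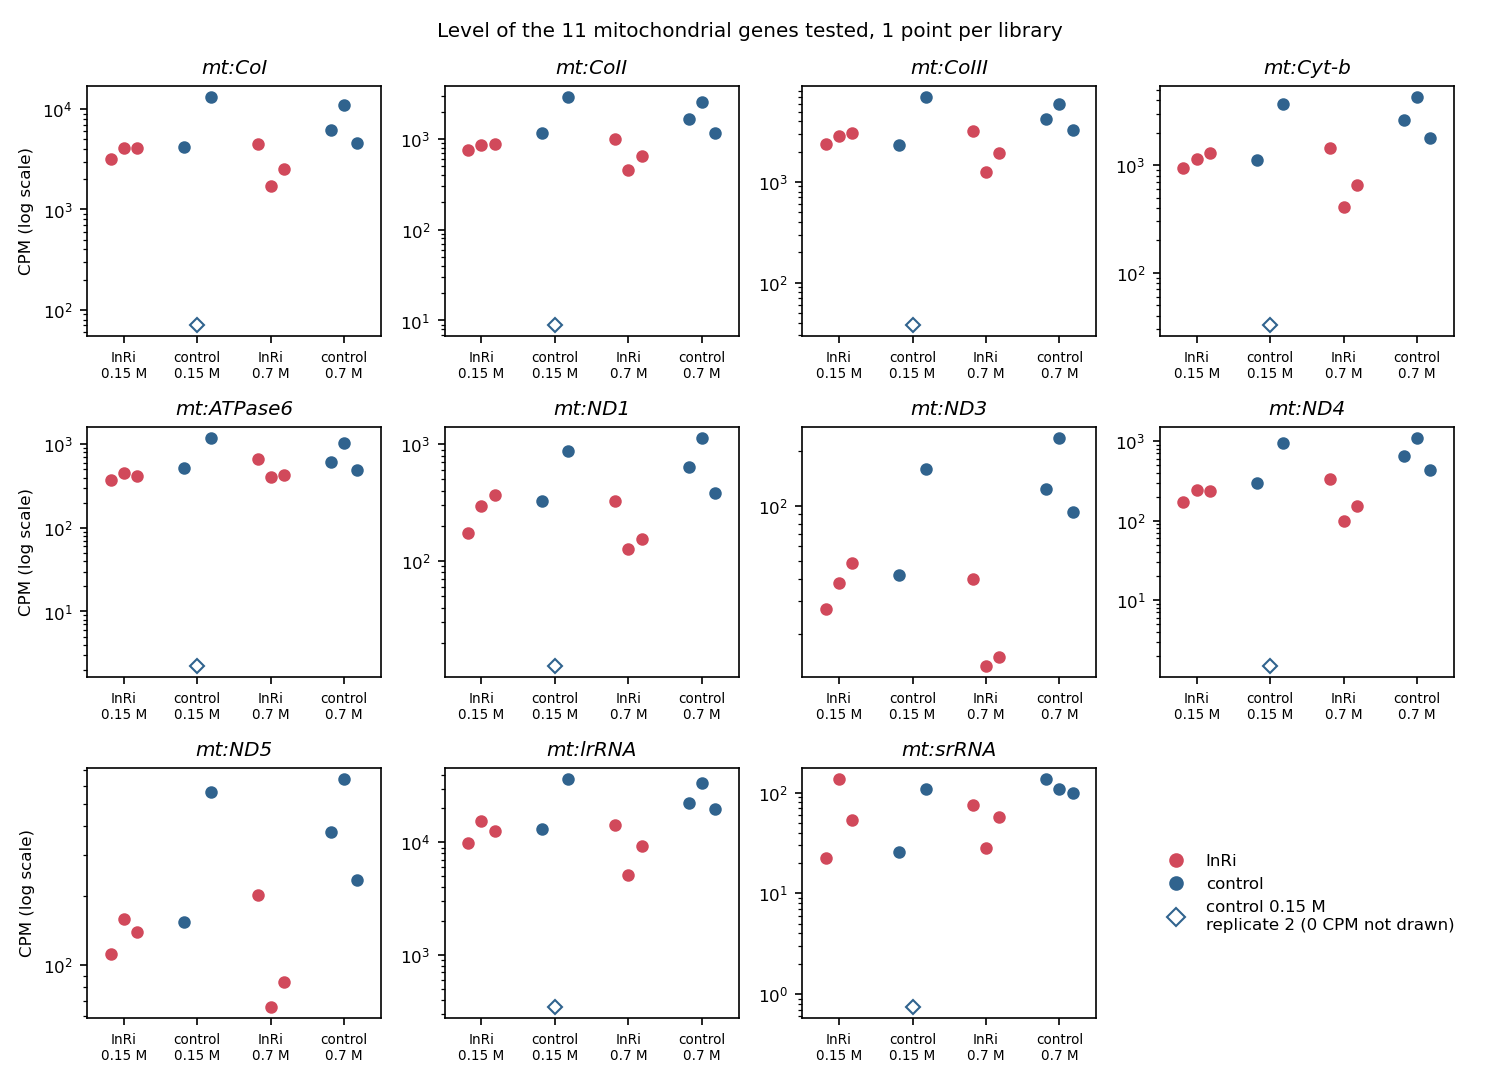
CPM (y axis, log scale) of each of the 11 tested mitochondrial genes in every library, with InRi (red) left of control (blue) for each sucrose level. On 0.7 M sucrose the InRi points lie below the control points in every panel but that of mt:ATPase6, and the open diamond of control 0.15 M replicate 2 lies far below all other points; mt:ND3 and mt:ND5 were at 0 CPM in that library and are not drawn there.

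Control 0.15 M replicate 2 is not one of the libraries compared on 0.7 M sucrose, but it widens the estimate of the spread that all 4 groups share. Without it, 7 of the 11 genes fell in InRi on 0.7 M sucrose: mt:CoII, mt:Cyt-b, mt:ND1, mt:ND3, mt:ND4, mt:ND5 and mt:lrRNA. The background was then 18.5% of all genes called and 7.5% called lower. As above, the mitochondrial genes called are not separate observations. mt:ND3 had a log2 fold change of -2.69 (SE 0.52, edgeR adjusted p = 0.00311), mt:ND4 of -1.86 (SE 0.48, edgeR adjusted p = 0.0156), mt:Cyt-b of -1.78 (SE 0.48, edgeR adjusted p = 0.0204) and mt:lrRNA of -1.37 (SE 0.41, edgeR adjusted p = 0.0313). The other 3 were mt:ND5 at -1.81, mt:ND1 at -1.80 and mt:CoII at -1.33, with edgeR adjusted p-values of 0.0168 to 0.0218. Of the 4 genes that did not pass, mt:CoI had -1.28 (edgeR adjusted p = 0.0546), mt:CoIII -1.05 (0.0783), mt:srRNA -1.08 (0.216) and mt:ATPase6 -0.49 (0.320). The fold changes hardly moved, with a median of -1.37, while the standard errors were smaller. When only the 6 libraries on 0.7 M sucrose were fitted, 10 of 11 passed, all lower and all but mt:ATPase6, where 20.8% of all genes were called and 8.67% were lower.

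Some other measures moved with genotype on 0.7 M sucrose as well, and some did not. Muscle markers, which could enter a sheared preparation and come from a tissue rich in mitochondria, summed to 1831 to 4292 CPM in InRi and 5369 to 6577 CPM in control. Of the 13 muscle markers, 9 were lower in InRi without overlap, where 16.5% of all genes were, and none was at 0 in all libraries. edgeR called 0 of the 13 with all 12 libraries (5.41% of all genes were called) and 1, lower in InRi, without control 0.15 M replicate 2 (18.5% of all genes were called, 7.5% lower). Salivary gland markers summed to 7.73 to 96.9 CPM in InRi and 2361 to 5463 CPM in control. All 7 fell and had no overlap, beside the same 5.41% and 16.5% of all genes. The cuticle and epidermis markers summed to 92.3 to 306 CPM in InRi and 659 to 808 CPM in control. Of these 5 markers 4 were lower in InRi without overlap, where 16.5% of all genes were. The remaining one, Cpr49Aa, was at 0 in all libraries. edgeR called 0 of the 4 tested with all 12 libraries (5.41% of all genes were called). Without control 0.15 M replicate 2 it called all 4 lower, where 7.5% of all genes were called lower. Hemocyte markers moved the other way as a sum, with 919.8 to 993.7 CPM in InRi and 538.4 to 746 CPM in control. Singly, 2 of the 9 were higher and 2 lower in InRi without overlap, where 18.5% and 16.5% of all genes were, and edgeR called 1 higher with all 12 libraries and 2 higher without control 0.15 M replicate 2. In the same fits 314 of all 8662 genes and 978 of all 8870 genes were called higher. Midgut markers overlapped as a sum, with 142 to 401 CPM in InRi and 390 to 397 CPM in control. Of these 10, 0 were higher and 1 was lower in InRi without overlap, where 18.5% and 16.5% of all genes were. The nervous system markers summed to 314 to 370 CPM in InRi and 306 to 415 CPM in control, and all 6 overlapped. As a sum the fat body markers overlapped, with 214797 to 351826 CPM in InRi and 228828 to 310424 CPM in control. Of the 8, 4 were higher and 2 lower in InRi without overlap, where 18.5% and 16.5% of all genes were. With all 12 libraries edgeR called 1 higher and 1 lower (5.41% of all genes were called). Lsp1alpha was lower, with 149, 285 and 375 CPM in InRi and 22139, 25065.5 and 21422 CPM in control. Lsp2 was among the 4 higher. The part of muscle, salivary gland, epidermis and hemocytes in the mitochondrial transcripts of InRi was not tested.

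On 0.15 M sucrose the 11 genes gave no call in the same comparison. Their median log2 fold change was -0.54, against 0.03 over all genes, and edgeR and DESeq2 each called 0 of 11 (1.73% of all genes were called by edgeR), with 0 at an unadjusted p under 0.05 in both. With DESeq2 560 of all 8662 genes were called, and 1626 (edgeR) and 1851 (DESeq2) had an unadjusted p under 0.05. mt:CoI had 3198, 4051 and 4143 CPM in InRi and 4208, 70.7 and 13093 CPM in control. The InRi replicates were alike and the control replicates were not. The groups overlapped for all 11 genes, where 13.4% of all genes were higher and 9.33% lower in InRi without overlap.

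When control 0.15 M replicate 2 was left out, the median on 0.15 M sucrose was -1.12 and again 0 genes were called (4.32% of all genes were), with 9 of 11 at an unadjusted p under 0.05. Under that unadjusted threshold lay 1664 of all 8870 genes in the same fit. mt:CoII came nearest, at a log2 fold change of -1.30 (SE 0.40, edgeR adjusted p = 0.0858), with 763, 859.5 and 869.8 CPM in InRi and 1156 and 2865 CPM in the control libraries that remained. A further count, of genes lower in InRi without overlap, gave 4: mt:ATPase6, mt:CoI, mt:CoII and mt:ND4, where 18.1% of all genes were. Leaving out control 0.15 M replicate 3 instead, the library with the highest share, turned the median to 0.80. The direction on 0.15 M sucrose therefore rested on single control libraries.

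**Figure D3:**
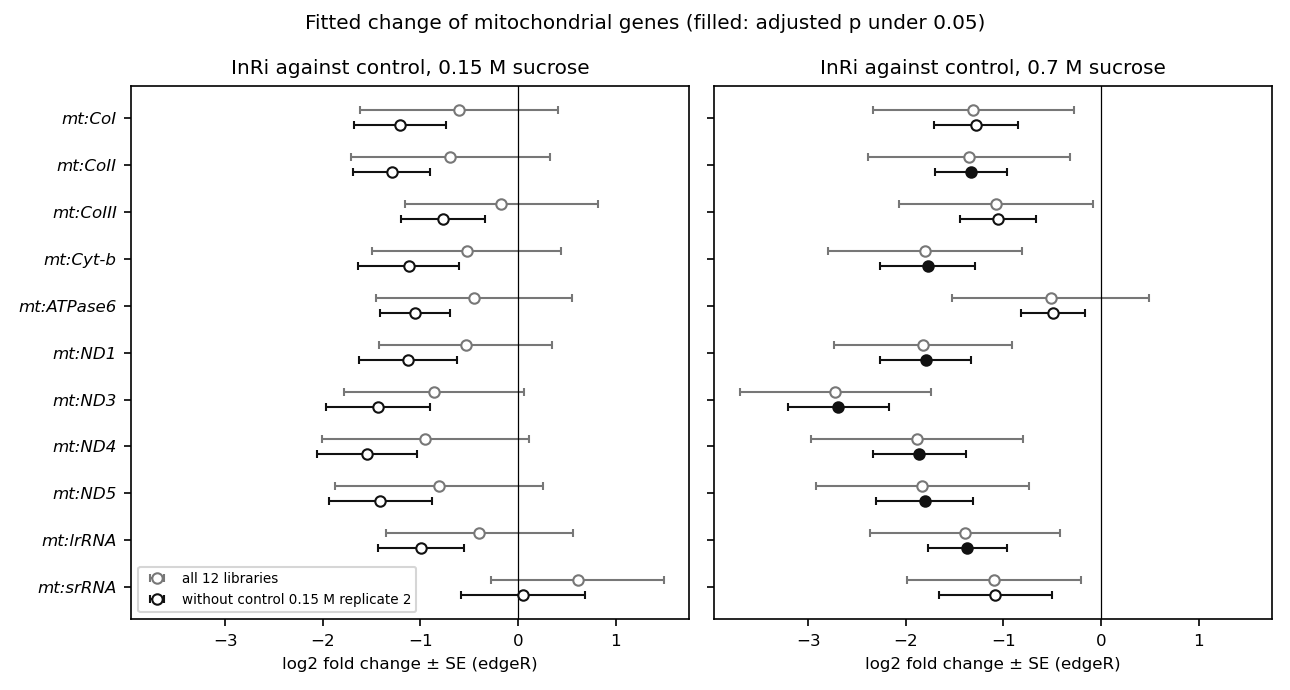
Log2 fold change of InRi against control (x axis, with bars of 1 SE) for the 11 tested mitochondrial genes on 0.15 M sucrose (left) and 0.7 M sucrose (right), in grey from all 12 libraries and in black without control 0.15 M replicate 2, filled where the adjusted p was under 0.05. On 0.7 M sucrose the estimates of both fits lie at nearly the same place and 7 of the black points are filled, while on 0.15 M sucrose the black points lie to the left of the grey ones and none is filled.

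Higher sucrose moved no mitochondrial gene past the threshold. In control, edgeR called 0 of 11 for 0.7 M against 0.15 M (0.277% of all genes were called), with 0 at an unadjusted p under 0.05 and 0 called by DESeq2. Among all 8662 genes, 908 had an unadjusted p under 0.05 with edgeR and DESeq2 called 180. The median log2 fold change of the 11 genes was 0.79 against 0.03 over all genes. The median was 0.18, with 6 positive and 5 negative values and 0 calls (1.51% of all genes were called), without control 0.15 M replicate 2, 2.06 without replicate 3 of that group and 0.34 without control 0.7 M replicate 2. mt:lrRNA, for example, had 22439, 33513 and 19619.8 CPM in control on 0.7 M sucrose and 13115, 344 and 36292 CPM on 0.15 M sucrose. The 0.7 M replicates all lay inside the range of the 0.15 M replicates.

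In InRi, edgeR again called 0 of 11 for sucrose (1.26% of all genes were called), with 0 at an unadjusted p under 0.05 and 0 called by DESeq2. There, 987 of all 8662 genes had an unadjusted p under 0.05 with edgeR and DESeq2 called 312. The median of the 11 genes was -0.37 against -0.02 over all genes, and mt:ATPase6 was the only one of them with a positive value (0.28, SE 1.005, edgeR adjusted p = 0.971). mt:lrRNA had 14357, 5078 and 9356 CPM on 0.7 M sucrose and 9799.9, 15362 and 12654 CPM on 0.15 M sucrose in InRi. That median was -0.80 without InRi 0.7 M replicate 1, -0.08 without InRi 0.7 M replicate 2 and -0.23 without InRi 0.15 M replicate 2.

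The genotype by sucrose interaction, which asks whether InRi differed from control by another amount on each diet, gave 0 calls among the 11 genes and 0.0% among all genes with edgeR. Of the 11 genes, 0 had an unadjusted p under 0.05 and DESeq2 called 0. Over all genes, 456 had an unadjusted p under 0.05 and DESeq2 called 17. The median interaction was -0.996. It was -0.38 without control 0.15 M replicate 2, with 0 of 11 called among 0.0113% of all genes, and -2.39 without control 0.15 M replicate 3. A difference between the diets was thus not shown, and the larger gap on 0.7 M sucrose is not evidence of one.

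The make-up of the mitochondrial messages varied less than their total for the most abundant genes. Each gene's share of the counts of the 13 protein genes does not depend on how many nuclear counts a library holds. mt:CoI took 36.3% to 43.3% of them in every library, including control 0.15 M replicate 2, where 224 protein counts gave 42.4% with a 95% Wilson interval of 36.1% to 49.0%. Over the other 11 libraries the level of mt:CoI varied 7.65-fold. mt:CoII took 8.25% to 11.4% in those 11 libraries.

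mt:CoIII, by contrast, took more of the protein counts in InRi than in control on both diets. On 0.15 M sucrose its shares were 29.1%, 28.3% and 28.7% in InRi, against 22.9%, 22.8% and 22.8% in control, where the value of replicate 2 has a Wilson interval of 17.8% to 28.7%. With 0.7 M sucrose they were 27.2%, 27.6% and 29.4% in InRi, against 24.5%, 21.3% and 26.5% in control. The groups did not overlap on either diet, with differences between means of 5.88 and 3.97 percentage points. No test was planned for the make-up, and these are descriptions. They are ratios within a library, so a larger share of one gene comes with smaller shares of others and does not show that its level was raised.

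In the high-sugar groups 7 of the 9 protein genes tested differed in share between InRi and control without overlap. No share over all genes was worked out for this or the other counts of make-up. The shares within a library also depend on each other, so such counts do not set these genes apart. mt:ATPase6 took 5.74%, 8.94% and 6.49% in InRi and 3.60%, 3.77% and 3.92% in control, so it made up 1.88 times as large a part. mt:Cyt-b took 12.3%, 8.96% and 9.81% in InRi and 15.4%, 15.4% and 14.4% in control. All 4 complex I genes took less in InRi: mt:ND3 averaged 0.286% ± 0.057 in InRi and 0.768% ± 0.068 in control, mt:ND4 2.45% ± 0.37 in InRi and 3.72% ± 0.21 in control, mt:ND5 1.48% ± 0.22 in InRi and 2.12% ± 0.23 in control, and mt:ND1 2.64% ± 0.26 in InRi and 3.61% ± 0.52 in control (SD, n = 3 each). mt:ATPase6 and mt:CoIII thus made up more, and mt:Cyt-b and the complex I genes less, of the mitochondrial messages of InRi on that diet, while mt:CoI and mt:CoII overlapped. The genes that took less lie on both strands, mt:ND3 and mt:Cyt-b on one and mt:ND1, mt:ND4 and mt:ND5 on the other. On the genome mt:ATPase6 and mt:CoIII follow each other directly.

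**Figure D4:**
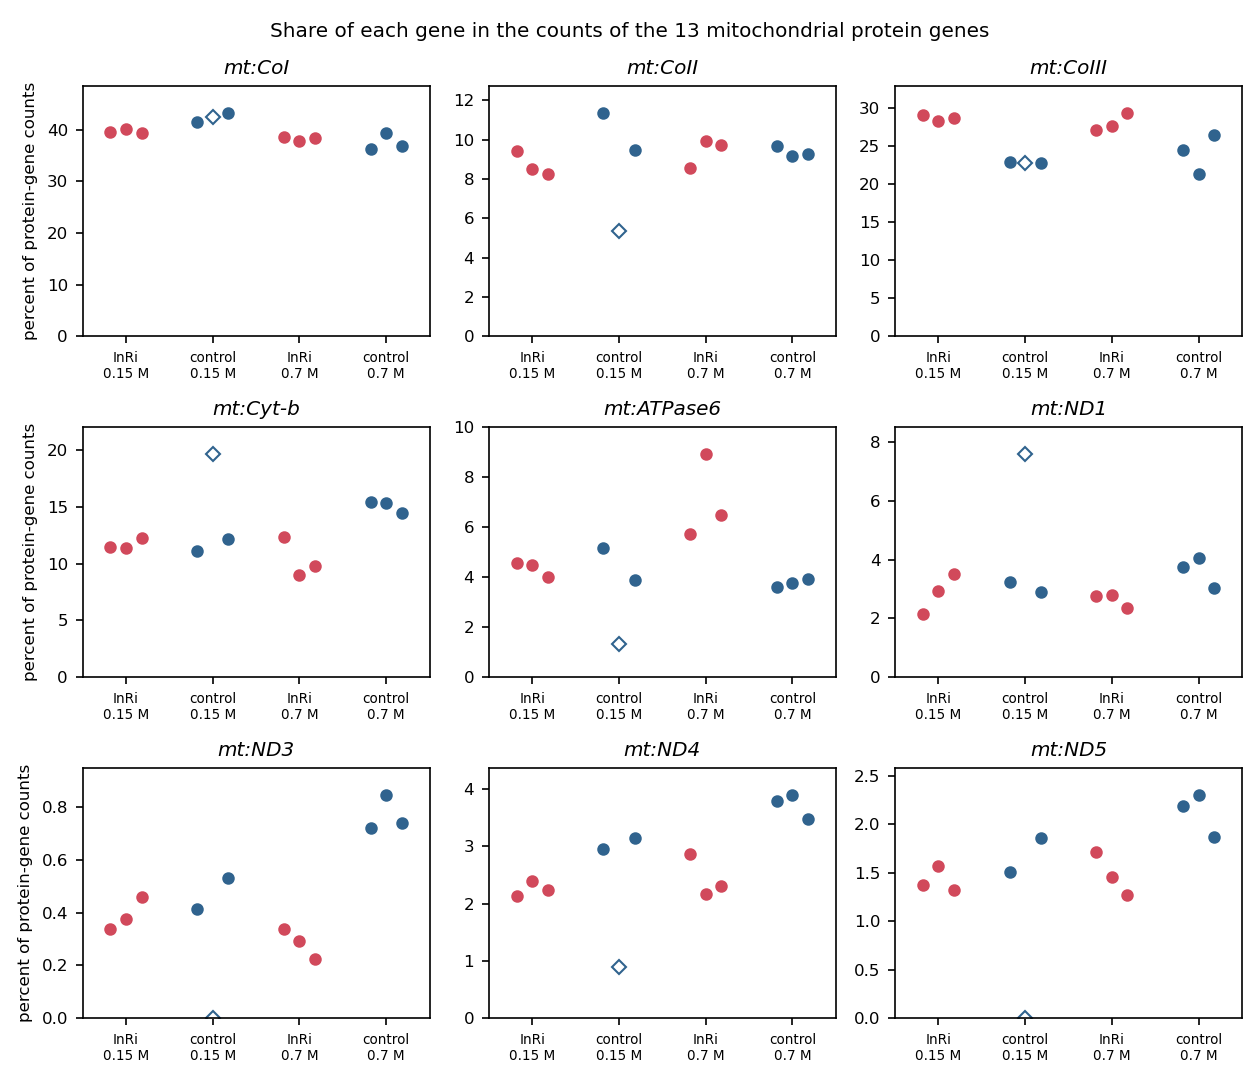
Percent of the counts of the 13 mitochondrial protein genes (y axis, from 0) taken by each of the 9 tested protein genes, 1 point per library, with InRi in red left of control in blue for each sucrose level and control 0.15 M replicate 2 as an open diamond. mt:CoIII is higher in InRi on both diets, mt:ATPase6 is higher and mt:Cyt-b and the 4 complex I genes are lower in InRi on 0.7 M sucrose; the diamonds rest on 224 counts.

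On 0.15 M sucrose 2 of the 9 genes did not overlap, mt:CoIII and mt:CoI, which took 39.6% ± 0.41 in InRi and 42.4% ± 0.93 in control (SD, n = 3 each). This count too has no share over all genes beside it. Omitting control 0.15 M replicate 2, mt:CoII and mt:ND4 were also lower in InRi, and mt:Cyt-b, at 11.7% in InRi and 11.6% in control, did not show the gap seen on 0.7 M sucrose.

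With sucrose in control, mt:CoI took less on 0.7 M (37.5% ± 1.61) than on 0.15 M (42.4% ± 0.93), and mt:ND3, mt:ND4 and mt:ND5 took more, all without overlap. mt:ND3 had 0.720%, 0.845% and 0.739% on 0.7 M sucrose and 0.413%, 0% and 0.529% on 0.15 M sucrose in control; the 0 comes from control 0.15 M replicate 2, where 0 of 224 counts allow a share of up to 1.69% (upper Wilson bound). Without that library the same 4 genes and mt:Cyt-b did not overlap. With sucrose in InRi, mt:ATPase6 took more on 0.7 M (7.06% ± 1.67) than on 0.15 M (4.35% ± 0.31) and mt:CoI less (38.3% ± 0.40 against 39.6% ± 0.41), without overlap (SD, n = 3 each), and the other 7 genes overlapped.

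As a sum, the nuclear genes of the respiratory chain scattered less than the mitochondrial ones over 11 libraries. Their 69 members, which make the other subunits of complexes I to V and cytochrome c, summed to 3854 to 6780 CPM in 11 libraries, a narrower range than the mitochondrial genes had there. In control 0.15 M replicate 2 they summed to 11044 CPM, the highest of all, with 30 of the 69 at their highest level and 25 at their lowest level in that library. The same library held 17251 CPM of muscle markers, against 1831 to 6577 CPM in the other 11, with 9 of 13 at their highest level there. Cuticle and epidermis markers summed to 2825 CPM in it, against 92.3 to 948 CPM in the other 11, with 4 of 5 at their highest level. The shares of all genes at their highest or lowest level there are not given, so these counts do not set the lists apart. The mitochondrial genes of control 0.15 M replicate 2 lay at the other end: the next lowest library had 24.2 times as much mt:CoI, 14.74 times as much mt:lrRNA and 165 times as much mt:ATPase6, which rested on 3 counts. mt:ND3 and mt:ND5 were at 0 counts there, where 3 counts would be 2.23 CPM.

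The ratio of mitochondrial to nuclear messages was also taken within each complex. For complex IV, the summed CPM of mt:CoI, mt:CoII and mt:CoIII over that of 9 nuclear subunit genes was 4.15 to 8.02 in InRi on 0.7 M sucrose and 9.75 to 17.6 in control. The groups did not overlap. For complex I the ratio was 0.592, 0.267 and 0.371 in InRi and 1.28, 1.71 and 0.778 in control, and for complex III with cytochrome c it was 0.752 to 1.76 in InRi and 2.62 to 5.43 in control, both without overlap. For complex V, where mt:ATPase6 is the mitochondrial member counted, it was 0.217, 0.173 and 0.202 in InRi and 0.249, 0.396 and 0.206 in control, and the groups overlapped. In control 0.15 M replicate 2 the complex IV ratio was 0.0563, against 4.15 to 22.5 in the other libraries.

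Single nuclear genes of mitochondrial function gave few calls. Of 117 tested genes on 11 lists (the subunits, mitochondrial DNA replication and transcription, RNA processing, tRNA synthetases, translation factors, complex assembly and biogenesis regulators), edgeR called 0 in each comparison with all 12 libraries. Of all genes it called 1.73% for InRi on 0.15 M sucrose, 5.41% for InRi on 0.7 M sucrose, 0.277% for sucrose in control, 1.26% for sucrose in InRi and 0.0% for the interaction. At an unadjusted p under 0.05 there were 22, 9, 4, 3 and 3 of the 117 in the same order, and DESeq2 called 1, 3, 0, 0 and 0. Of all 8662 genes, 1626, 1622, 908, 987 and 456 had an unadjusted p under 0.05, and DESeq2 called 560, 836, 180, 312 and 17. For InRi on 0.7 M sucrose the median log2 fold change of the 68 tested subunit genes was -0.16, against -0.04 over all genes, and 8 of the 69 listed were higher and 13 lower in InRi without overlap, where 18.5% and 16.5% of all genes were.

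With control 0.15 M replicate 2 left out, 9 of the 117 passed in InRi on 0.7 M sucrose, 3 higher and 6 lower, where 18.5% of all genes were called and 7.5% were lower. Complex I held 5 of them among its 33 tested genes, 1 higher and 4 lower. The higher one was CG3446 (ND-B16.6), with 29.5, 32.4 and 29.2 CPM in InRi and 17.5, 15.95 and 20.7 CPM in control (log2 fold change 0.81, SE 0.19, edgeR adjusted p = 0.00863). Among those that fell were CG40002 (ND-AGGG), with 6.94, 6.04 and 4.66 CPM in InRi and 15.4, 21.7 and 14.2 CPM in control (log2 fold change -1.53, SE 0.34, edgeR adjusted p = 0.00691), and CG3621 (ND-B14.5A; -1.29, SE 0.25, edgeR adjusted p = 0.00314). scu, a subunit of the enzyme that trims the 5′ ends of mitochondrial tRNAs, fell too, with 370.5, 349.9 and 327 CPM in InRi and 572, 825 and 721 CPM in control (-0.99, SE 0.21, edgeR adjusted p = 0.00501). Cyt-c-p, which encodes the cytochrome c that carries electrons to complex IV, rose, with 68.1, 31.2 and 28.3 CPM in InRi and 20.5, 19.3 and 16.3 CPM in control (1.18, SE 0.30, edgeR adjusted p = 0.0147). Cyt-c-p also rose with sucrose in InRi, by 1.13 on the log2 scale (SE 0.28, edgeR adjusted p = 0.0307), the only list gene to pass there, where 6.7% of all genes were called.

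The 12 genes of mitochondrial DNA replication and transcription summed to 89.4 to 104.4 CPM in InRi on 0.7 M sucrose and 92.6 to 115.6 CPM in control. These ranges overlapped, and edgeR called 0 of the 10 tested genes with all 12 libraries (5.41% of all genes were called), with 0 at an unadjusted p under 0.05 and 0 called by DESeq2. Among all 8662 genes, 1622 had an unadjusted p under 0.05 and DESeq2 called 836. Without control 0.15 M replicate 2 edgeR also called 0 of the 10 (18.5% of all genes were called). It gave 1 of them an unadjusted p under 0.05, as it did 2867 of all 8870 genes.

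Across libraries the mitochondrial share was set beside 3 measures, with p-values adjusted over them. With all 12 libraries none passed: for the summed muscle markers Pearson's r was -0.42 (permutation p = 0.170, adjusted 0.232) and Spearman's rho 0.34 (permutation p = 0.288, adjusted 0.647), and r was 0.69 (permutation p = 0.0291) without the 2 libraries farthest from the median on that measure. Over the 11 libraries other than control 0.15 M replicate 2, r was 0.85 (permutation p = 0.00109, adjusted 0.00327) and rho 0.74 (permutation p = 0.0121, adjusted 0.0362). Leaving out the 2 farthest of these libraries gave 0.66 (permutation p = 0.0552, n = 9), so the relation no longer passed and rested in part on InRi 0.7 M replicate 2 and control 0.7 M replicate 1. The groups differ in both measures on 0.7 M sucrose, and each group holds too few libraries for a value of its own. Muscle was the only tissue list set beside the share, so the relation was not shown to be particular to muscle. The cuticle and epidermis sum, for example, was also lowest in InRi 0.7 M replicate 2, at 92.3 CPM.

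For the nuclear subunit genes r was -0.58 with all 12 libraries (permutation p = 0.0867, adjusted 0.232; rho 0.25, permutation p = 0.432, adjusted 0.647) and 0.51 without control 0.15 M replicate 2 (permutation p = 0.106, adjusted 0.159; rho 0.63, permutation p = 0.0449, adjusted 0.0674). For the library total r was 0.34 (permutation p = 0.232, adjusted 0.232; rho -0.08, permutation p = 0.818, adjusted 0.818) and -0.19 without that library (permutation p = 0.531, adjusted 0.531). None of these passed after adjustment.

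**Figure D5:**
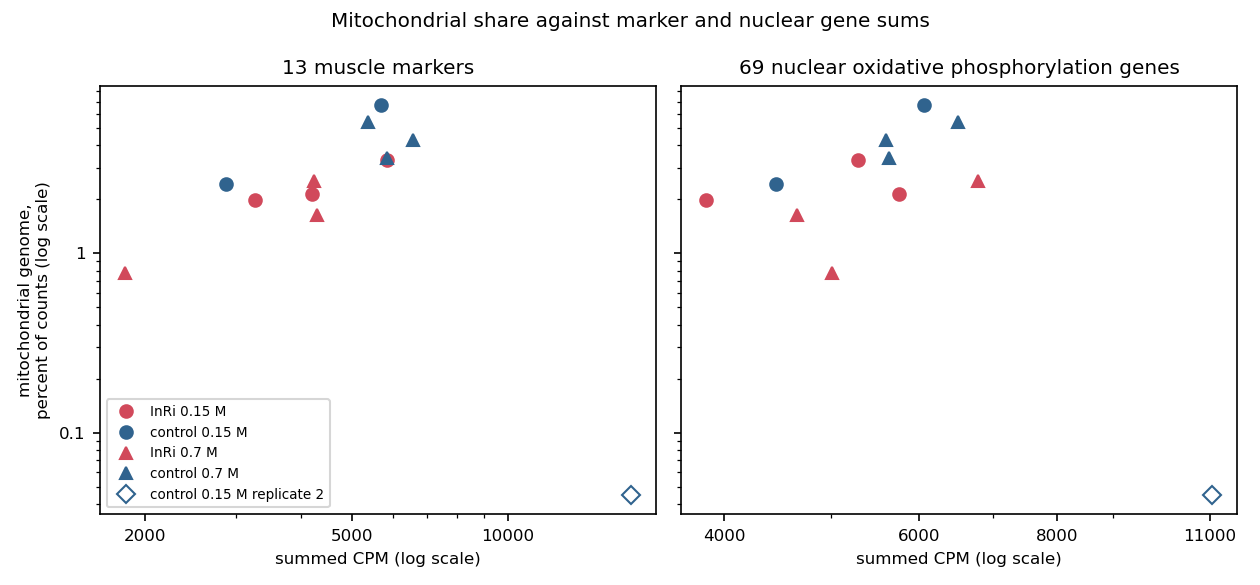
Percent of counts from the mitochondrial genome (y axis, log scale) against the summed CPM of 13 muscle markers (left) and of 69 nuclear oxidative phosphorylation genes (right; x axes, log scale), 1 point per library. Among the 11 libraries drawn as filled points the share is higher where muscle markers are higher (r = 0.85), and control 0.15 M replicate 2, the open diamond, has the highest sum in both panels and the lowest share. Other tissue lists were not set beside the share.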

How the data were processed

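The values analysed are counts of reads per gene in 12 libraries, as the authors deposited them. Per the labels' protocols, ribosomal RNA was removed from total RNA with RiboZero before reverse transcription, size exclusion, amplification and sequencing on an Illumina HiSeq. Per the submitters' processing notes, TopHat 1.3.2, Bowtie 0.12.7 and Cufflinks 1.1.0 were used with the genome build dm3. The sources used here do not give the counting tool or strand. Gene lengths, strands and gene order come from a later annotation, and no coordinates of it are given. Columns were matched to samples by title. No library was a copy of another (smallest chi-square per gene between libraries 3.08).

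filterByExpr (at least 10 counts, 15 in total) left 8662 genes for testing. Counts were scaled by TMM and fitted with the quasi-likelihood test of edgeR 4.0.16 to all 12 libraries with 1 mean per group, and adjusted by Benjamini-Hochberg at 0.05 over all genes tested. DESeq2 1.42.0 was an alternative (R 4.3.3, limma 3.58.1). Shares were tested by exact permutation of log2 values (20 arrangements for 3 against 3, 400 within strata; Python 3.11.15, scipy 1.17.1), and relations by 100000 permutations. Figures used matplotlib 3.10.9. Tested on simulated data, the fit recovered 68% of 4-fold and 3% of 2-fold changes for InRi against control on 0.7 M sucrose, with 2 unchanged genes called among 8516, and 68% and 10% on 0.15 M sucrose. For sucrose it recovered 64% and 4% in control and 76% and 16% in InRi. The changed genes of the simulation were drawn only from genes outside the mitochondrial genome. These rates therefore do not give the power for the tested mitochondrial genes.

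The members and all lists were chosen with earlier results of these data known. All protein and ribosomal RNA genes of the mitochondrial genome are named. Of each nuclear list up to 3 genes with the smallest p per comparison could be named, and InR as the target. Of 124 symbols on the nuclear lists 122 were found in the table. Same-numbered replicates were not used as pairs, since the labels do not say what a number shares. Alternatives covered scaling, test, filter, block, fits of only the compared groups, and leaving out each library in turn; those on nuclear lists, make-up and overlap without control 0.15 M replicate 2 were added after seeing the data.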

Additional observations from a re-analysis of the deposited data

How the results depend on the processing

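With 12 libraries, 0 of 11 mitochondrial genes were called in each comparison under another scaling (DESeq2 size factors, TMM without mitochondrial genes, library totals) or with DESeq2, and 0 of 19 without the filter. For InRi on 0.7 M sucrose these settings called 470, 466, 397 and 836 of all 8662 genes in that order. The fit without the filter called 452 of 13018. For InRi on 0.15 M sucrose the same settings, the unfiltered one last, called 154, 150, 161, 560 and 211 of all genes. Sucrose in control gave 24, 24, 12, 180 and 58, and sucrose in InRi 110, 109, 43, 312 and 111. The interaction gave 0, 0, 0, 17 and 0. Where few genes are called at all, 0 of 11 says little. Library totals moved the median of all genes to 0.21, -0.14, 0.05 and -0.27 for InRi on 0.15 M, InRi on 0.7 M, sucrose in control and sucrose in InRi, and that of the members to -0.42, -1.43, 0.73 and -0.60. On 0.7 M sucrose the number called in InRi against control was 0 to 7 over the omissions of 1 library. It was 7 only without control 0.15 M replicate 2, and 10 when only the 2 groups compared were fitted. The smaller spread of those libraries is part of the alternative itself. Over the omissions 137 to 1643 of all genes were called, 1643 of them without control 0.15 M replicate 2. The fit of only the 2 groups called 1700 of 8173. The median there was negative in all alternatives run.

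The log2 share ratios over omissions of 1 library were -0.74 to 2.87 for InRi against control on 0.15 M sucrose, -1.13 to 0.67 within sucrose levels and -0.31 to 1.49 for sucrose within genotypes. Counting the 13 protein genes only, the ratio within sucrose levels was 0.0329. Relations without control 0.15 M replicate 2 had r = -0.19 for the library total, 0.51 for nuclear subunit genes and 0.85 for muscle markers. Alternatives chosen after seeing the data, without control 0.15 M replicate 2, gave 9 calls on the nuclear lists for InRi on 0.7 M sucrose, 1 for sucrose in InRi, and 4 in place of 2 protein genes whose make-up did not overlap on 0.15 M sucrose.

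Single genes that changed sign when 1 library was left out had these ranges of log2 fold change, none of them called. For InRi against control on 0.15 M sucrose they were -1.05 to 0.65 for mt:ATPase6, -1.21 to 0.83 for mt:CoI, -1.30 to 0.51 for mt:CoII, -0.77 to 1.22 for mt:CoIII, -1.12 to 0.95 for mt:Cyt-b, -1.12 to 0.70 for mt:ND1, -1.44 to 0.73 for mt:ND3, -1.55 to 0.51 for mt:ND4, -1.41 to 0.80 for mt:ND5, -0.99 to 0.91 for mt:lrRNA and -0.28 to 2.24 for mt:srRNA. For sucrose in control they were -0.27 to 1.44 for mt:ATPase6, -0.29 to 1.76 for mt:CoI, -0.20 to 1.62 for mt:CoII, -0.073 to 1.92 for mt:CoIII and -0.0014 to 1.90 for mt:lrRNA. For sucrose in InRi they were -0.60 to 0.0034 for mt:CoII, -0.79 to 0.18 for mt:ND4, -0.86 to 0.083 for mt:ND5 and -0.81 to 0.50 for mt:srRNA. The interaction of mt:ATPase6 ran from -1.16 to 0.56. Leaving out control 0.15 M replicate 3 turned all 10 of the negative values on 0.15 M sucrose.

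With replicate number as a block, mt:CoIII on 0.15 M sucrose was 0.22, 0 mitochondrial genes were called in each comparison, and 305 in place of 469 of all genes were called for InRi on 0.7 M sucrose. The block fit called 105 of all genes for InRi on 0.15 M sucrose. It called 11 for sucrose in control, 53 for sucrose in InRi and 0 for the interaction. Correlations of deviations between same-numbered libraries ran from -0.38 to 0.17. With 3 libraries per group they cannot settle whether a number marks something shared. The cause of these changes was not tested. A library of 872755 counts (control 0.7 M replicate 3) has a floor of 3.26 CPM for 3 counts, which limits tRNA genes, mt:ND2 and mt:ND6 but no tested mitochondrial gene outside control 0.15 M replicate 2.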
